A study of Mus musculus with 36 samples.

Results

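Mbnl1, Mbnl2 and Mbnl3 are the muscleblind genes of the mouse. They are 3 of the 19938 genes that the arrays measured with a probe set (a group of probes summarised to 1 value) of 1 gene symbol. They were chosen with earlier results of these data known, because Mbnl3 was low in alveolar macrophages that descend from yolk sac macrophages. Each gene had 1 such probe set, and all 3 genes were among the 12244 tested, which had log2 values above 4.62, the median of the whole table, in 4 or more arrays. The low level of Mbnl3 in yolk sac-derived macrophages is therefore a description here and has no test. The tests below are of Mbnl1 and Mbnl2 where no yolk sac-derived sample enters, and of all 3 genes among the cells profiled before transfer.

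The study asked how cells of different origin come to resemble resident alveolar macrophages, the cells that clear the air spaces. Donor cells of wild type CD45.1+CD45.2+ mice were placed through the nose into newborn Csf2rb-/- mice, which cannot signal through the GM-CSF receptor, and their progeny was recovered by sorting lavage cells after 6 weeks. All samples are labelled C57BL/6, and 36 arrays fall into 9 groups of 4. The progeny is called YS-derived (from yolk sac macrophages), FL-derived (from fetal liver monocytes), BM-derived (from bone marrow monocytes) and AM-derived (from adult alveolar macrophages) macrophages. The donor populations before transfer were yolk sac macrophages of day E12.5, fetal liver monocytes of day E15.5, bone marrow monocytes of mice aged 6 to 12 weeks and adult alveolar macrophages of mice aged 6 to 12 weeks. Native alveolar macrophages of wild type mice aged 6 weeks, never transferred, served as the control. Per the labels' protocols, collagenase was used on yolk sac and fetal liver but not on bone or lung. The 4 samples of each group are labelled biological replicates, and the labels do not say how many mice each holds.

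Muscleblind proteins bind RNA through CCCH zinc fingers, which recognise short motifs around YGCY. They decide whether nearby exons are kept or skipped, and also act on the choice of poly(A) site and on where transcripts go in the cell. They are best known from human myotonic dystrophy, in which repeats transcribed from the DMPK or CNBP locus hold them in nuclear foci and exons revert to fetal forms. MBNL1 and MBNL2 act widely in differentiated tissue. Mbnl3 is X-linked and is known in mouse mainly from embryo, placenta and regenerating muscle, where it was described as a factor that opposes muscle differentiation. The values below are levels of whole probe sets, so they show transcript abundance and say nothing of exon use.

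Mbnl3 (probe set 10604528) lies at chrX:51113494-51205990 on the minus strand in GRCm38.p6. Mbnl2 (probe set 10417053) lies at chr14:120275652-120431698 and Mbnl1 (probe set 10492310) at chr3:60472559-60629750, both on the plus strand. The promoters of the 3 genes are shown because the genes share a protein family while their levels across the groups differ. RefSeq's table for GRCm38.p6 gave 4 windows of 300 bases for the 3 genes, printed 5′ to 3′ on the gene's strand. The Mbnl3 window runs from 250 bases before to 50 bases after the start of the gene on its strand. The same layout around a transcription start is taken for the others, whose starts need not be the ends of the gene spans above. The Mbnl1 windows lie wholly inside the Mbnl1 span. Capitals mark each CG dinucleotide. The Mbnl3 window is chrX:51205941-51206240, the Mbnl2 window is chr14:120275419-120275718, and the 2 Mbnl1 windows are chr3:60500929-60501228 (start 2) and chr3:60472580-60472879 (start 1).
Mbnl3: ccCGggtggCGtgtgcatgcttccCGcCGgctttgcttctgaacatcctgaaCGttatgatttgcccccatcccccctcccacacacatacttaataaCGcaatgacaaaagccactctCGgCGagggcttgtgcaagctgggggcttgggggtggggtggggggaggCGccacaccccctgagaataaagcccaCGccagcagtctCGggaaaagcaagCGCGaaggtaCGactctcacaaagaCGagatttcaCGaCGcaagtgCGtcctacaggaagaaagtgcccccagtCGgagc
Mbnl2: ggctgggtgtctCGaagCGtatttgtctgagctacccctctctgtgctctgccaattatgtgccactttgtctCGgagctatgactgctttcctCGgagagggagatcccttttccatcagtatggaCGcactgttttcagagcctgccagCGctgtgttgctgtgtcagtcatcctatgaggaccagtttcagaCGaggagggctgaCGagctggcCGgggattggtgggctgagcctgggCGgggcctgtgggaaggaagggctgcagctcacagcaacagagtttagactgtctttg
Mbnl1 start 2: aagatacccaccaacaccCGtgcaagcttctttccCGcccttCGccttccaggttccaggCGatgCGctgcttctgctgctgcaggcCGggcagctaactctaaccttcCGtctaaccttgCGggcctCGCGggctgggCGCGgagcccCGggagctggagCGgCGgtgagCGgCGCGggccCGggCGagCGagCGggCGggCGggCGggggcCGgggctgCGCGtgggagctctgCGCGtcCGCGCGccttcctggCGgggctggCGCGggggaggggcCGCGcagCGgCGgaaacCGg
Mbnl1 start 1: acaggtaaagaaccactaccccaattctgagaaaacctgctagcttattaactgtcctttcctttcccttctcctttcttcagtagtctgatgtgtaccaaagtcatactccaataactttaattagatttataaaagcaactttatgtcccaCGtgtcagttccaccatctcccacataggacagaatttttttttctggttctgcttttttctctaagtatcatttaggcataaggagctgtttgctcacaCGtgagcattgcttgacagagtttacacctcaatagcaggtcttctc

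The 4 windows range from nearly free of CG to dense in it. The Mbnl3 window holds 19 CG dinucleotides at a GC content of 59%, and 71.9% of the 32851 promoter windows in the table hold fewer. The Mbnl2 window holds 10 at a GC content of 56.3%, and 56.5% of windows hold fewer. Mbnl1 start 2 holds 41 at a GC content of 75%, more than 96.5% of windows, whereas start 1 holds 2 at a GC content of 39.3%, more than 14.1% of windows. Which Mbnl1 start was used cannot be told from the probe set value. A search of both strands for 6 motifs, with overlapping matches counted, found none of them in the Mbnl3 window. The first was the GC box, with the letters GGGCGG, which 35.7% of all windows hold. The second was the box with the letters CCAAT, in 37.4% of windows, and the third the box with the letters TATAAA, in 13.6% of them. The E-box had the letters CACGTG and was found in 7.15% of windows. The AP-1 site was searched as TGANTCA and found in 7.81% of windows. The core of PU.1 sites was searched as GAGGAA and found in 28.3% of windows. The Mbnl2 window holds the second motif 2 times, the GC box 1 time and the PU.1 core 1 time. Mbnl1 start 2 holds the GC box 4 times, and start 1 holds the second motif, the third motif and the E-box 2 times each. A match is a description of letters and not of binding.

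The arrays resembled each other closely within groups. The median of an array ranged from 4.54 to 4.73 on the log2 scale, and its mean correlation with the other arrays of its group, across the genes, from 0.980 to 0.989. All 12 alveolar macrophage markers, such as Pparg, Siglecf and Car4, had group means above the table median in each of the 6 alveolar macrophage groups, and 6 of 12 had in each precursor group. All 8 monocyte markers on the array were above it in both monocyte groups, and all 11 tissue macrophage markers on the array in yolk sac macrophages. In these bulk samples, fewer cells of a type and less RNA per cell cannot be told apart.

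The group means of Mbnl3 spanned 3.23 on the log2 scale, against 0.84 for Mbnl2 and 0.57 for Mbnl1. The low end of the Mbnl3 span is the YS-derived mean for which the gene was chosen, so the span is a description. In YS-derived macrophages Mbnl3 read 4.41, 4.22, 4.96 and 4.92, a mean of 4.63 ± 0.37 (SD, n = 4). That is close to the table median, with 2 of 4 arrays above it, so the probe set was dim there and the size of any fold against it is limited by background. In the other derived groups Mbnl3 read 7.98, 7.37, 7.58 and 6.22 in FL-derived macrophages (7.29 ± 0.75), 7.82, 7.68, 7.35 and 7.52 in BM-derived macrophages (7.59 ± 0.20), and 7.41, 7.84, 7.84 and 7.48 in AM-derived macrophages (7.64 ± 0.23). Adult alveolar macrophages before transfer read 7.77, 7.43, 7.29 and 7.63 (7.53 ± 0.21). Native macrophages read 7.44, 7.38, 7.52 and 7.47 (7.45 ± 0.06). Every YS-derived array lay below every other alveolar macrophage array, and the nearest was FL-derived replicate 4 at 6.22.

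**Figure D1:**
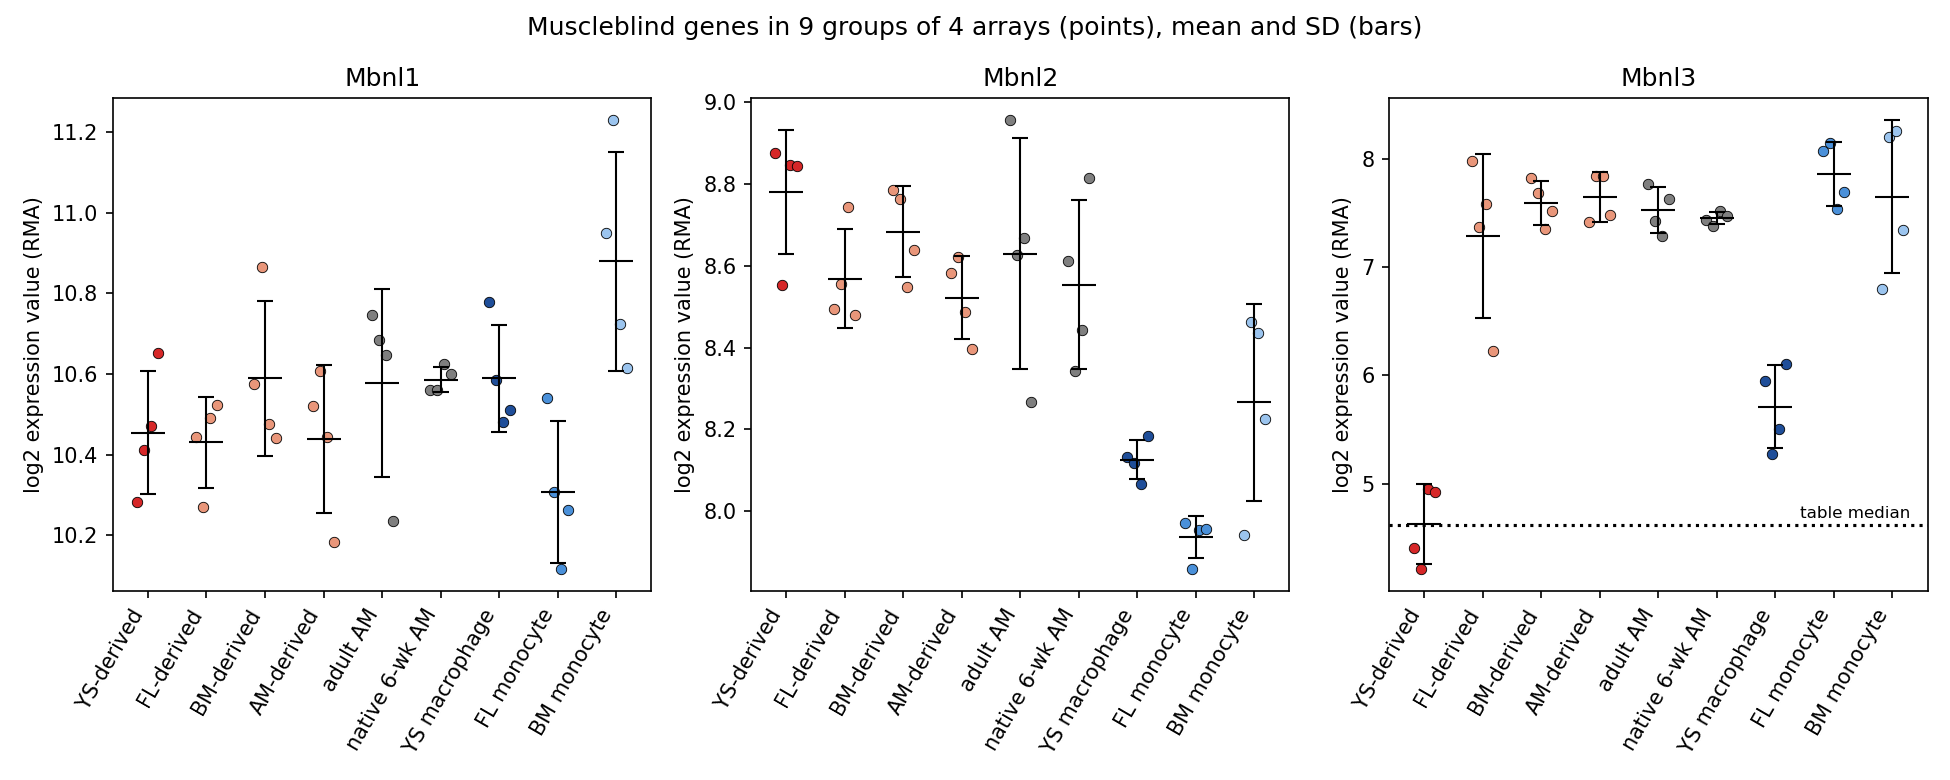
Log2 expression value (y axis, a separate scale in each panel) of Mbnl1, Mbnl2 and Mbnl3 in the 4 arrays of each of 9 groups, with points for arrays, bars for the mean and SD, and a dotted line at the table median of 4.62. Mbnl3 lies lowest in YS-derived macrophages and next lowest in yolk sac macrophages, while the other 7 groups overlap.

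The plot of the members by array shows this gap for Mbnl3 alone. The Mbnl3 mean of YS-derived macrophages was lower than that of native macrophages by a log2 difference of -2.82, about 7.08-fold. Against BM-derived macrophages the difference was -2.96 (7.81-fold), against FL-derived macrophages -2.66 (6.32-fold) and against AM-derived macrophages -3.02 (8.10-fold). These 4 comparisons share the YS-derived arrays and were used in choosing Mbnl3, so they carry no test. Without FL-derived replicate 4 the difference from FL-derived macrophages was -3.02. The other members showed no gap of that kind: YS-derived macrophages differed from native, BM-derived, FL-derived and AM-derived macrophages by 0.23, 0.10, 0.21 and 0.26 for Mbnl2. For Mbnl1 these differences were -0.13, -0.13, 0.02 and 0.02, and the ranges of the groups overlapped in every case for both genes.

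Yolk sac macrophages, the donors of the YS-derived cells, were also low in Mbnl3, on arrays that played no part in choosing it. They read 5.95, 5.28, 5.51 and 6.11 (5.71 ± 0.39), against 8.07, 8.14, 7.53 and 7.70 in fetal liver monocytes (7.86 ± 0.29) and 6.80, 8.20, 8.25 and 7.35 in bone marrow monocytes (7.65 ± 0.70). No yolk sac macrophage array reached any monocyte array. The level was 3.83-fold lower than in bone marrow monocytes (log2 difference -1.94 ± 0.28 SE, 95% interval -2.50 to -1.37, adjusted p = 6.32e-07 by limma). It was 4.43-fold lower than in fetal liver monocytes (-2.15, interval -2.71 to -1.58, adjusted p = 1.17e-07). In adult alveolar macrophages Mbnl3 was 3.52-fold higher than in yolk sac macrophages (1.82, interval 1.25 to 2.38, adjusted p = 1.65e-06). The share of all genes tested that passed in these comparisons, in either direction, was 42.2% against bone marrow monocytes, 33.1% against fetal liver monocytes and 42.2% for adult alveolar macrophages against yolk sac macrophages, so passing the test was common. Mbnl3 passed in all 3, Mbnl2 passed in the last alone, and Mbnl1 passed in none. Between both monocyte groups and adult alveolar macrophages no difference in Mbnl3 passed the test: fetal liver minus bone marrow monocytes was 0.21 (interval -0.36 to 0.78), adult alveolar macrophages minus bone marrow monocytes -0.12 (-0.69 to 0.44), and minus fetal liver monocytes -0.33 (-0.90 to 0.23).

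Markers of other cells moved along these donor comparisons. The mean level of 10 neutrophil markers was 4.14 to 4.24 across yolk sac macrophage arrays, against 7.88 to 8.62 in fetal liver monocytes and 7.09 to 8.68 in bone marrow monocytes. That of 8 erythroid markers was 6.53 to 6.94 in yolk sac macrophages (6 of 8 above the table median), against 4.38 to 4.78 in fetal liver and 4.23 to 4.35 in bone marrow monocytes (3 of 8 in each). Their part in the Mbnl3 difference was not tested. Adult alveolar macrophages had Mbnl3 at 7.53 with neutrophil markers at 4.66 to 5.08 and erythroid markers at 4.18 to 4.24. YS-derived macrophages had the lowest Mbnl3 with erythroid markers at 4.26 to 4.45, against 4.18 to 4.44 over the arrays of the other derived groups.

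The order of the Mbnl3 means was fetal liver monocytes, bone marrow monocytes, AM-derived, BM-derived, adult, native and FL-derived alveolar macrophages, then yolk sac macrophages and YS-derived macrophages. Neighbours among the first 7 groups differed by less than their pooled SD and overlapped. The steps down to yolk sac macrophages (1.58) and from these to YS-derived macrophages (1.08) were larger than the pooled SD (0.60 and 0.38), with no overlap. Over transfer, Mbnl3 was thus 1.08 lower in YS-derived than in yolk sac macrophages, while it differed by -0.06 between BM-derived macrophages and bone marrow monocytes and by 0.12 between AM-derived and adult alveolar macrophages. FL-derived macrophages differed from fetal liver monocytes by -0.57, and by -0.22 without FL-derived replicate 4. All 4 of these differences are descriptions without a test.

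The spread of Mbnl3 within groups was uneven. Its SD was largest in FL-derived macrophages (0.75) and bone marrow monocytes (0.70), while in adult alveolar macrophages it was 0.21, below that of Mbnl2 (0.28) and Mbnl1 (0.23). Pooled over the groups, the SD of Mbnl3 was 0.42, against 0.18 for Mbnl1 and 0.17 for Mbnl2. Of the genes tested, 94.6% had a pooled SD no larger than that of Mbnl3. Because the gene is X-linked, its values were set beside sex-linked transcripts. Native replicates 1 and 4 had low Xist, the RNA that silences an X chromosome (4.31 and 3.73), and high Eif2s3y, a Y-linked gene (7.88 and 7.87). Native replicates 2 and 3 had the reverse, with Xist at 8.99 and 9.24 and Eif2s3y at 2.65 and 2.85. Mbnl3 read 7.44 and 7.47 in replicates 1 and 4, and 7.38 and 7.52 in replicates 2 and 3. All other arrays carried both transcripts. FL-derived replicate 4, the lowest of its group for Mbnl3, had Xist at 6.68 and Eif2s3y at 7.70, while the other 3 had Xist at 7.89 to 8.51 and Eif2s3y at 5.56 to 6.35. YS-derived arrays ranged from 6.37 to 8.53 in Xist.

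The 3 tested genes on either side of Mbnl3 on the X chromosome were read beside it. Firre, Stk26 and Rap2c lie at lower coordinates and Phf6, Hprt and Fam122b at higher ones. Between YS-derived macrophages and FL-derived or BM-derived macrophages, these 6 genes differed by -0.37 to 0.19. Firre, a long noncoding RNA, had the lowest of these values and also lower means in YS-derived than in AM-derived (-0.82) and native macrophages (-0.59). The other 5 neighbours differed by -0.12 to 0.04 in those comparisons. In yolk sac macrophages Stk26, a kinase, was lower than in bone marrow monocytes (-3.71, adjusted p = 1.74e-16) and than in fetal liver monocytes (-3.83, adjusted p = 9.16e-17), both by limma. Unlike Mbnl3, Stk26 was below the table median in all 6 alveolar macrophage groups (3.24 to 3.36), as in yolk sac macrophages (3.51). Hprt, an enzyme of purine salvage, was higher in yolk sac macrophages by 0.37 and 0.33 against bone marrow and fetal liver monocytes (adjusted p = 0.00205 and 0.00712 by limma). Fam122b was lower than in fetal liver monocytes (-0.79, adjusted p = 0.0144 by limma), and Rap2c, a small GTPase, and Phf6, a chromatin protein, passed in neither comparison.

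**Figure D2:**
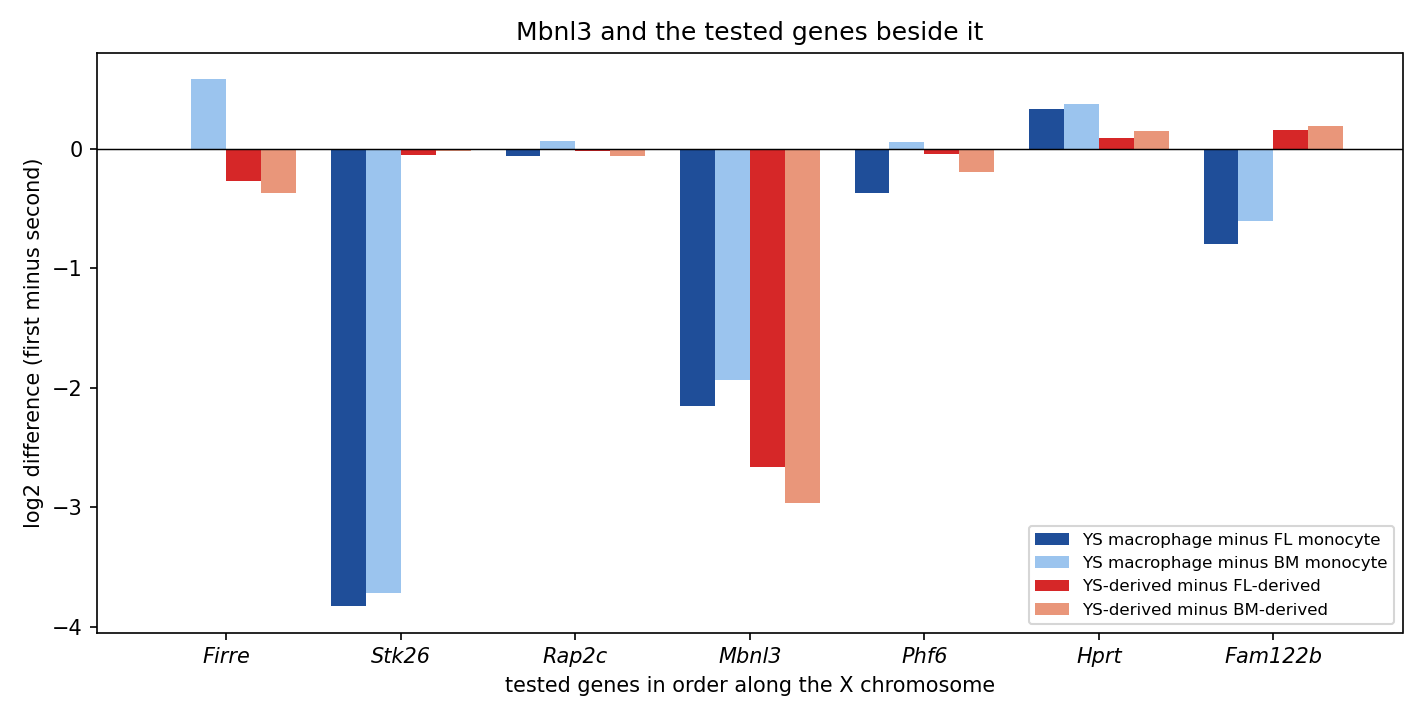
Log2 differences (y axis) of Mbnl3 and the 3 tested genes on either side of it, in order along the X chromosome (x axis), for yolk sac macrophages against the 2 monocyte groups and for YS-derived against FL-derived and BM-derived macrophages. Mbnl3 is low in all 4 comparisons, and Stk26 is low in the 2 donor comparisons only.

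In the plot of the neighbours, Mbnl3 has differences below -1 in all 4 comparisons and Stk26 in the donor comparisons. The derived comparisons were used to choose Mbnl3. Genes with group means most like those of Mbnl3 were then listed by Pearson's r over the 9 group means, as a description in which all genes share the same arrays. The 5 highest were Stap1 (r = 0.911), N4bp3 (0.905), Ngfr (0.898), Agap2 (0.895) and Slc22a20 (0.885). Stap1, an adaptor protein of immune cell signalling, had a group mean of 5.12 in YS-derived and 5.09 in yolk sac macrophages, against 6.07 to 7.28 in the other 7 groups. Its FL-derived arrays read 6.54, 6.25, 6.15 and 5.36, so replicate 4 was the lowest there as it was for Mbnl3. Over the 6 alveolar macrophage groups the 5 highest were Fgf5 (0.988), Cldn1 (0.984), Usf1 (0.984), Nr6a1 (0.983) and Galnt2 (0.979). Of these, Cldn1, a tight junction protein, spanned 3.34 on the log2 scale and the other 4 spanned 0.11 to 0.21. Cldn1 read 5.29, 3.70, 3.96 and 4.27 in YS-derived macrophages, against 7.74, 8.0, 7.38 and 7.45 in native macrophages, and those groups did not overlap. Over these 6 groups Mbnl3 is set apart mainly by its YS-derived mean (4.63, against 7.29 to 7.64 in the others). Ranking by r thus picked genes that are low there, so the gap in Cldn1 is a description without a test. The ranking over the 9 groups includes the YS-derived mean too. FL-derived arrays read 7.0, 8.10, 7.75 and 6.62 for Cldn1, with replicate 4 again the lowest.

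Mbnl2 was higher in adult alveolar macrophages than in each precursor population. Adult alveolar macrophages read 8.96, 8.63, 8.67 and 8.27 (8.63 ± 0.28). Yolk sac macrophages read 8.13, 8.12, 8.07 and 8.18 (8.13 ± 0.05), fetal liver monocytes 7.97, 7.86, 7.95 and 7.96 (7.94 ± 0.05), and bone marrow monocytes 7.94, 8.46, 8.43 and 8.23 (8.27 ± 0.24). All adult macrophage arrays lay above every array of yolk sac macrophages and fetal liver monocytes, and they overlapped with bone marrow monocytes. Mbnl2 was higher in adult alveolar macrophages than in yolk sac macrophages by 0.50 (adjusted p = 0.00116) and than in fetal liver monocytes by 0.69 (adjusted p = 2.36e-05), by limma with an SE of 0.12. Against bone marrow monocytes it was higher by 0.36 (adjusted p = 0.0214 by limma). That last call rested on single arrays: without bone marrow replicate 1 or adult replicate 1 the difference was 0.25 with an adjusted p of 0.130 or 0.126, and with only these groups fitted the adjusted p was 0.165. Mbnl2 was the member called against fetal liver monocytes, where 38.4% of all genes passed, and against bone marrow monocytes, where 34.7% did.

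Over transfer Mbnl2 rose in the descendants of both monocytes. BM-derived macrophages read 8.79, 8.76, 8.55 and 8.64 (8.68 ± 0.11), 1.34-fold above bone marrow monocytes (log2 difference 0.42 ± 0.12 SE, adjusted p = 0.00786 by limma), with no overlap. Without bone marrow replicate 1 the difference was 0.31 and the adjusted p 0.0597. FL-derived macrophages read 8.50, 8.56, 8.74 and 8.48 (8.57 ± 0.12), 1.55-fold above fetal liver monocytes (0.63 ± 0.12, adjusted p = 8.71e-05), again with no overlap. Of Mbnl1 and Mbnl2, 1 of 2 passed in each of these comparisons, in which 36.4% and 38.3% of all genes tested passed. With 2 genes, a share of this kind carries little information. The change in FL-derived cells was not distinguished from that in BM-derived cells (difference of the changes 0.22 ± 0.18, adjusted p = 0.534). YS-derived macrophages read 8.88, 8.55, 8.85 and 8.84 (8.78 ± 0.15), 0.65 above yolk sac macrophages, with no overlap and, as a comparison with YS-derived samples, no test. AM-derived macrophages read 8.58, 8.62, 8.49 and 8.40 (8.52 ± 0.10), and the difference from adult alveolar macrophages was -0.11 (adjusted p = 0.904).

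Genes with group means most like those of Mbnl2 over the 9 groups were Clptm1l (r = 0.976), Mgat5 (0.972), Kdsr (0.971), Cd68 (0.970) and Cenpb (0.970). Cd68, a lysosomal glycoprotein used as a macrophage marker, spanned 1.96 on the log2 scale. Cenpb binds centromeric DNA, Mgat5 branches N-glycans and Kdsr acts in sphingolipid synthesis. Many genes differ between the precursor and the alveolar macrophage groups, so such likeness is common and is given as a description.

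Mbnl1 spanned the least of the 3 genes and differed between the monocytes of fetal liver and bone marrow. Fetal liver monocytes read 10.54, 10.31, 10.12 and 10.26 (10.31 ± 0.18), the lowest mean of the 9 groups, against 10.95, 11.23, 10.72 and 10.61 in bone marrow monocytes (10.88 ± 0.27), the highest. These arrays did not overlap, and Mbnl1 was 1.49-fold lower in fetal liver than in bone marrow monocytes (log2 difference -0.57 ± 0.13 SE, interval -0.84 to -0.30, adjusted p = 0.00154 by limma). It was the 1 member of 3 that passed in that comparison, in which 19.5% of genes did, and Mbnl2 differed by -0.33 (adjusted p = 0.0586). Yolk sac macrophages read 10.78, 10.58, 10.48 and 10.51 (10.59 ± 0.13), which differed by -0.29 from bone marrow (adjusted p = 0.0743) and by 0.28 from fetal liver monocytes (adjusted p = 0.0992). Adult alveolar macrophages read 10.75, 10.68, 10.65 and 10.23 (10.58 ± 0.23), with differences of -0.30 from bone marrow (adjusted p = 0.0744) and 0.27 from fetal liver monocytes (adjusted p = 0.106). All 4 of these differences missed the threshold, and each passed it when a certain single array was left out. In BM-derived macrophages (10.57, 10.87, 10.48 and 10.44) Mbnl1 differed from bone marrow monocytes by -0.29 (adjusted p = 0.0835), and in FL-derived macrophages (10.44, 10.27, 10.49 and 10.52) from fetal liver monocytes by 0.12 (adjusted p = 0.501). The difference between these changes, 0.41 ± 0.19, had an adjusted p of 0.173, where 9.94% of genes passed. In AM-derived macrophages (10.52, 10.61, 10.44 and 10.18) the difference from adult alveolar macrophages was -0.14 (adjusted p = 0.878), and 0.702% of genes passed there.

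**Figure D3:**
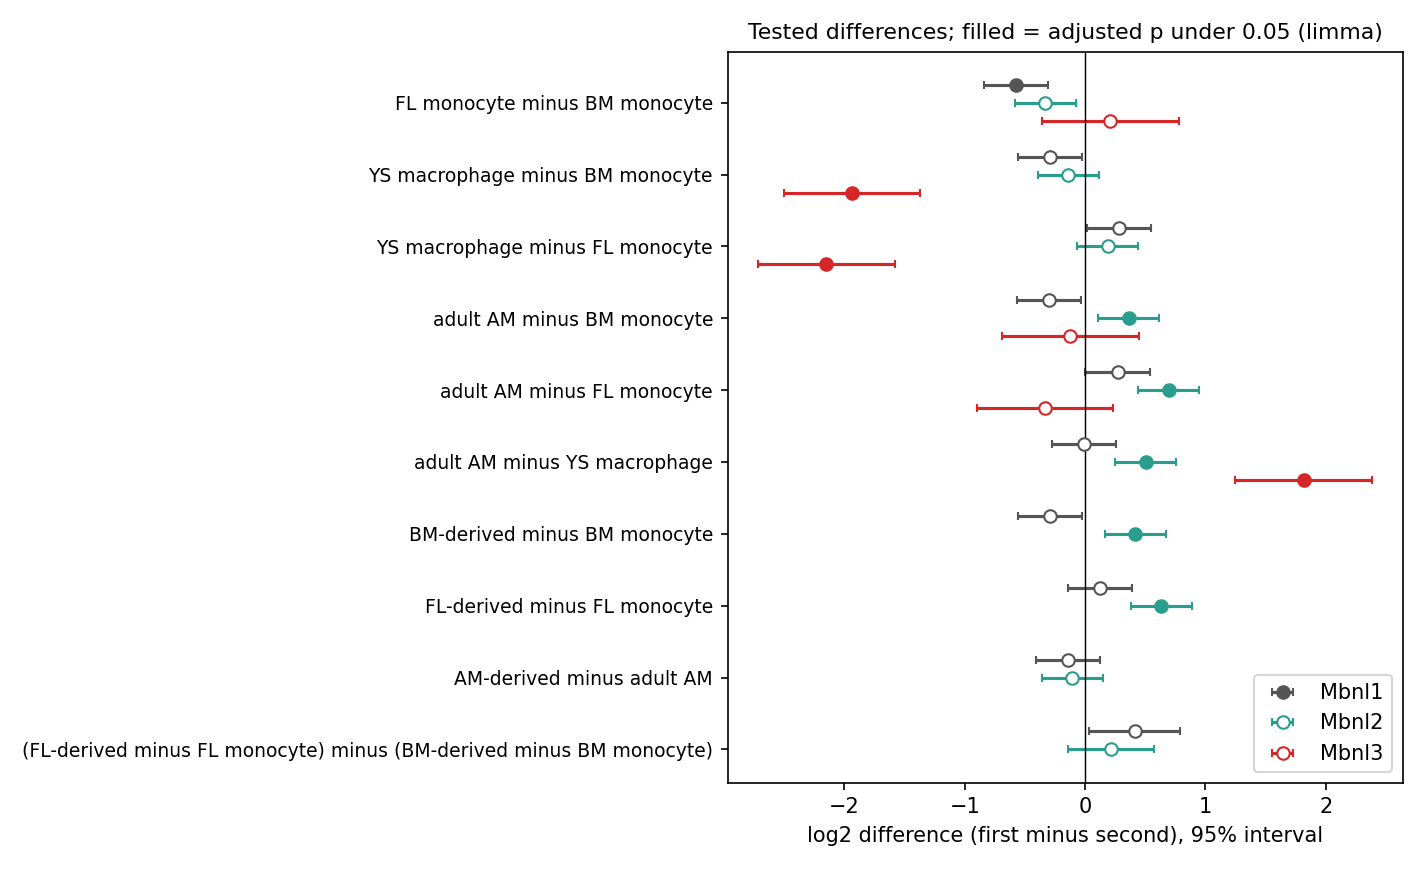
Log2 differences (x axis, first group minus second, with 95% intervals not adjusted for multiple testing) of the 3 genes in the donor comparisons and of Mbnl1 and Mbnl2 over transfer, with filled points for an adjusted p under 0.05 by limma. The Mbnl3 differences that involve yolk sac macrophages lie farthest from 0, at -1.94, -2.15 and 1.82.

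The plot of tested differences sets the 3 genes on a single axis: each called Mbnl1 and Mbnl2 difference lay within 0.69 of 0, and each called Mbnl3 difference was 1.82 or more in size. Genes most like Mbnl1 over the 9 group means were Mtarc2 (r = 0.973), Dido1 (0.966), Ssh2 (0.948), Brd1 (0.942) and Lmf1 (0.937). Among the members, r over the 9 group means was 0.04 between Mbnl1 and Mbnl2, 0.09 between Mbnl1 and Mbnl3 and -0.23 between Mbnl2 and Mbnl3, as descriptions.

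Between alveolar macrophage groups outside the YS-derived one, neither Mbnl1 nor Mbnl2 passed a test. Native macrophages read 10.56, 10.56, 10.62 and 10.60 for Mbnl1 (10.59 ± 0.03) and 8.61, 8.34, 8.44 and 8.82 for Mbnl2 (8.55 ± 0.21). These arrays are shared by the comparisons that follow. Set against them, BM-derived, FL-derived, AM-derived and adult alveolar macrophages gave 0 calls by limma, and 0 at an unadjusted p under 0.05, in comparisons in which 1.31%, 1.05%, 1.07% and 0.0163% of genes passed. The 4 intervals reached from -0.42 to 0.27 for Mbnl1 and from -0.29 to 0.38 for Mbnl2. The 3 comparisons among FL-derived, BM-derived and AM-derived macrophages likewise gave 0 calls by limma and 0 at an unadjusted p under 0.05. Between FL-derived and BM-derived, BM-derived and AM-derived, and FL-derived and AM-derived macrophages 0.417%, 0.425% and 0.335% of genes passed. Those intervals reached from -0.42 to 0.42 for Mbnl1 and from -0.37 to 0.41 for Mbnl2.

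Other genes of RNA processing were read from 6 lists, chosen by knowledge of the pathway and with earlier results of these data known. Of their members 90 were tested. In yolk sac macrophages against bone marrow monocytes 37 were higher and 13 lower, so 55.6% passed beside 42.2% of all genes (24.1% higher and 18.1% lower). Their median difference was 0.24, against -0.01 over all genes tested. Against fetal liver monocytes 18 were higher and 9 lower (30% beside 33.1% of all genes, of which 18.6% higher and 14.5% lower), with a median of 0.03. In fetal liver against bone marrow monocytes 16 were higher and 5 lower (23.3% beside 19.5%, of which 10.6% higher and 8.97% lower). Their median was 0.16. When only those groups were fitted, 11 and not 21 passed, and the share of all genes under that fit is not given here.

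Of all genes tested, yolk sac macrophages had 24.1% higher and 18.1% lower against bone marrow monocytes, and 18.6% and 14.5% against fetal liver monocytes. The list of SR proteins, which bind exonic enhancers, also holds Tra2 proteins and kinases of SR proteins. It had 10 of 16 tested members higher and 0 lower against bone marrow monocytes. The higher members included Clk1, a kinase of SR proteins (1.10, adjusted p = 6.81e-06 by limma), Srpk1, another such kinase (0.84), Srsf6 (0.76) and Srsf5 (0.75). Against fetal liver monocytes 3 were higher and 1 lower, with Clk1 at 1.17 and Tra2a at -0.48. Of 21 tested hnRNP proteins, which often oppose SR proteins, 10 were higher and 1 lower than in bone marrow monocytes, with Hnrnpr at 0.95 and Hnrnpu at 0.80. The lower one was Hnrnpll, known to set exons of the CD45 gene Ptprc, at -0.69 (adjusted p = 1.91e-06 by limma). Against fetal liver monocytes Syncrip was higher by 0.42 and Hnrnpll lower by -1.02, and no other member passed.

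The same shares of all genes, 24.1% higher and 18.1% lower against bone marrow monocytes and 18.6% and 14.5% against fetal liver monocytes, stand beside the next counts. The list of other proteins with CCCH fingers had 7 of 15 higher and 1 lower than in bone marrow monocytes, and 8 higher with 0 lower against fetal liver monocytes. Zfp36l1 and Zfp36, which bind AU-rich elements and speed mRNA decay, were higher by 4.98 and 2.08 against bone marrow and by 4.03 and 1.69 against fetal liver monocytes. Zc3h12c, of a family of endoribonucleases, was higher by 2.51 and 2.18. In the same yolk sac macrophages Mbnl3, whose protein has CCCH fingers too, was lower. Of 21 tested CELF, RBFOX and other regulators of alternative exons, 5 were higher and 5 lower than in bone marrow monocytes, a share near the 42.2% of all genes that passed. Celf1, whose protein opposes muscleblind at many exons, was higher by 1.47 against bone marrow (adjusted p = 2.23e-05) and by 0.81 against fetal liver monocytes (adjusted p = 0.0167), both by limma. Khsrp (1.01), Tardbp (0.78) and Ptbp1 (0.68) were also higher than in bone marrow monocytes, and no tested member was lower by more than -0.66. Against fetal liver monocytes 2 of these 21 were higher and 3 lower, with Rbm38 at -0.89 and Tia1 at -0.68.

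**Figure D4:**
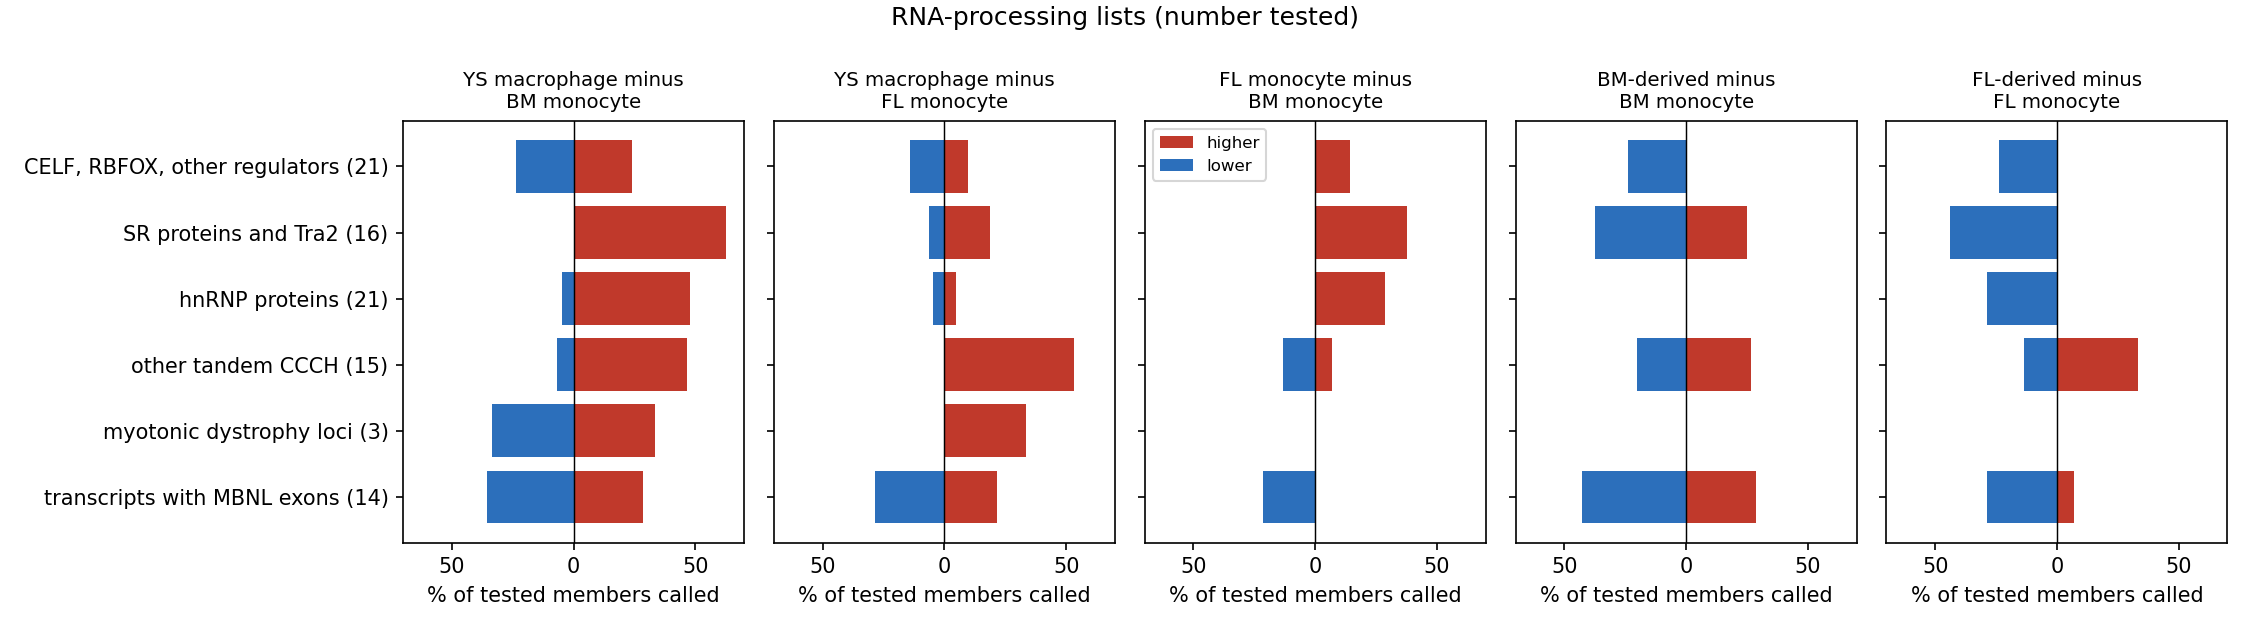
Share of tested members of 6 RNA-processing lists (rows, with the number tested) called higher (right, red) or lower (left, blue) in 5 comparisons (panels), in percent (x axis). The row labelled other tandem CCCH holds the list of other proteins with CCCH fingers, tandem or not. In yolk sac macrophages against bone marrow monocytes the SR proteins were called in 1 direction, 10 of 16 higher, while in FL-derived macrophages against fetal liver monocytes 7 of 16 were lower.

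The plot of the lists also shows the changes over transfer. In BM-derived macrophages against bone marrow monocytes 12 list members rose and 20 fell (35.6% beside 36.4% of all genes, of which 20.3% rose and 16.1% fell), and in FL-derived macrophages against fetal liver monocytes 6 rose and 24 fell (33.3% beside 38.3%, of which 20.4% rose and 18% fell). The largest fall among the regulators of alternative exons was that of Rbm38, an RNA-binding protein under control of p53, at -2.68 in BM-derived and -2.97 in FL-derived macrophages. Tia1, which acts on weak splice sites, fell too, at -1.05 and -0.80. In FL-derived macrophages 7 of 16 members of the list of SR proteins, Tra2 proteins and their kinases fell. Among them were Tra2b (-0.75), Srsf1 (-0.73) and the kinase Clk3 (-0.64). Of 21 hnRNP proteins 6 fell, among them Hnrnpdl (-0.86). In BM-derived macrophages 4 members of the SR list rose, among them the kinases Srpk2 (0.94) and Srpk1 (0.64). In the same list 6 members fell, among them Clk3 (-0.64), and no hnRNP protein passed the test.

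Among the loci of myotonic dystrophy, 3 of 4 were tested. Cnbp, whose human repeat lies in an intron, was higher in yolk sac macrophages, by 0.66 against bone marrow (adjusted p = 0.00453) and by 0.52 against fetal liver monocytes (adjusted p = 0.0322), both by limma. Dmpk, whose human repeat lies behind the coding part, had group means of 4.33 to 4.72, near the table median, and was lower than in bone marrow monocytes by -0.38 (adjusted p = 0.00336 by limma). Of 14 tested transcripts with exons known to be set by muscleblind proteins, yolk sac macrophages had 4 at higher and 5 at lower levels than bone marrow monocytes, where 24.1% of all genes were higher and 18.1% lower. Itga6, an integrin chain (3.03), and Bin1, a protein that shapes membranes (1.75), were higher, and Fn1, fibronectin (-5.32), and Add3, an adducin of the membrane skeleton (-2.39), were lower. These are levels of whole transcripts, and no exon was measured.

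Fn1, which is also one of the monocyte markers, was the list member that differed most among derived cells, YS-derived ones left aside. It was higher in FL-derived than in BM-derived macrophages by 2.02 ± 0.40 (adjusted p = 0.00665) and than in AM-derived macrophages by 2.92 (adjusted p = 2.59e-05), and lower in BM-derived than in native macrophages by -2.83 (adjusted p = 2.38e-05), all by limma. AM-derived macrophages had less Fn1 than native macrophages, by -3.72 (adjusted p = 6.15e-07 by limma). Against adult alveolar macrophages their difference was -3.38 (adjusted p = 2.90e-06 by limma). The list members were counted in the comparisons among derived, adult and native alveolar macrophages that hold no YS-derived sample. Fn1 was the only one of the 90 that passed in any of these. Where it passed, that was 1.11% of the list, beside 0.335% to 1.31% of all genes.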

How the data were processed

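The data are 36 arrays (Affymetrix Mouse Gene 1.0 ST, RNA amplified before hybridisation). The log2 values per probe set were used as deposited; per the submitters' processing notes the authors made them by RMA, whose version is not given in the sources used here. RMA brings all arrays to 1 distribution, which removes shifts shared by most genes and shrinks folds of dim probe sets. The number of arrays limits the precision. The table held 0 columns of other samples. Probe sets with 1 symbol in GEO's platform annotation were kept, the highest-mean one per gene (19938 genes), with symbols and positions from RefSeq GRCm38.p6. The 12244 genes above the table median in at least 4 arrays were fitted with limma 3.58.1 (R 4.3.3), 1 mean per group, and p-values were adjusted by Benjamini-Hochberg within each comparison and called under 0.05. P-values set a difference against the spread between samples within groups, taken as 1 value per gene over all 9 groups. For Mbnl3 the SDs of single groups ranged from 0.06 to 0.75. The 3 genes and all lists were chosen with earlier results of these data known. Named list members are the up to 4 called with the largest difference, neighbours are the 3 tested genes on either side, and like genes the 5 with the highest r, without predicted or small RNA genes. FL-derived replicate 4 was singled out after its values were seen. The fit for yolk sac macrophages against bone marrow monocytes was tested on simulated data of 12244 genes, of which 200 were changed. It recovered 88% of genes given a log2 change of 1 and 100% of those given 2, and made 8 false calls. In the real comparison 42.2% of genes passed, so these figures need not carry over to it. The deviations of same-numbered replicates from their group means correlated at -0.38 to 0.42 over 36 group pairs. As 0 pairs had all above 0.1, samples were not paired. Between donors and their progeny the values were 0.21, 0.19, -0.01 and 0.42 for adult alveolar macrophages and 0.03, 0.13, 0.06 and 0.11 for bone marrow monocytes. They were -0.07 to 0.01 for fetal liver monocytes and -0.14 to 0.04 for yolk sac macrophages. A link in some of the replicates could be missed by this rule. Figures were drawn with matplotlib 3.10.9 (Python 3.11.15).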

Additional observations from a re-analysis of the deposited data

Results flagged for a closer look

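Of the 27 sets of 4 arrays (3 genes in 9 groups), 2 held an array far from the other 3, and chance alone flags about 1 in 20 such sets. Mbnl2 in YS-derived replicate 2 was 8.55, while the other 3 arrays lay between 8.84 and 8.88. Without it the Mbnl2 difference of YS-derived from yolk sac macrophages was 0.73, against 0.65 with it. Mbnl2 in fetal liver monocyte replicate 2 was 7.86, with a gap of 0.10 to the nearest of the other 3, which lay between 7.95 and 7.97.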

How the results depend on the processing

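Of 40 tested results for the 3 genes, 32 kept their side of the threshold under every alternative run. Of the 40, 11 changed sign in some alternative, 0 of them called. The 25 described differences moved by less than the spread between replicates, but some small ones crossed 0 as arrays were left out. For Mbnl3 these included FL-derived against native (-0.39 to 0.19) and against BM-derived macrophages (-0.54 to 0.05). BM-derived macrophages against bone marrow monocytes were another (-0.34 to 0.14). Others did not cross 0, such as Mbnl3 in YS-derived against native macrophages (-2.93 to -2.69). The alternatives were no filter on low values, arrays centred on their medians, an intensity trend in the prior, the mean over probe sets, only the compared groups in the fit, a replicate block and leaving out each array. As each of the 3 genes had 1 probe set, the mean over probe sets could not change their own values. Mbnl2 in adult alveolar macrophages against bone marrow monocytes lost its call with only these groups fitted (0.36, adjusted p = 0.165) and without bone marrow replicate 1 or adult replicate 1 (range over arrays left out 0.25 to 0.48). Mbnl2 in BM-derived macrophages against bone marrow monocytes lost it without bone marrow replicate 1 (range 0.31 to 0.48). Calls were gained, all by limma, for Mbnl2 in fetal liver against bone marrow monocytes (range -0.44 to -0.27) without bone marrow replicate 1 or adult replicate 1 or 4, arrays that also set the shared spread. For Mbnl1 they were gained in yolk sac macrophages against bone marrow monocytes without bone marrow replicate 4 or yolk sac replicate 1 (-0.38 to -0.17) and against fetal liver monocytes without fetal liver replicate 1 (0.22 to 0.36). Adult alveolar macrophages gained an Mbnl1 call against bone marrow monocytes without bone marrow replicate 4 (-0.39 to -0.18) and against fetal liver monocytes without fetal liver replicate 1 or adult replicate 4 (0.21 to 0.38). BM-derived macrophages gained one against bone marrow monocytes without bone marrow replicate 4 or BM-derived replicate 2 (-0.38 to -0.17). Among the 11, the Mbnl3 differences of fetal liver monocytes and of adult alveolar macrophages from bone marrow monocytes ranged over the arrays left out as given here (-0.07 to 0.41 and -0.41 to 0.08). Fitting only the compared groups leaves fewer samples to estimate the spread. In that setting 11 instead of 21 list members passed in fetal liver against bone marrow monocytes. The share of all genes that passed in that comparison and setting is not given here. Over all genes, that setting gave 45 instead of 86 calls for AM-derived against adult, 74 instead of 128 for FL-derived against native, 13 instead of 51 for FL-derived against BM-derived, 32 instead of 52 for BM-derived against AM-derived, 15 instead of 41 for FL-derived against AM-derived and 0 instead of 2 for adult against native alveolar macrophages. Leaving out single arrays gave 1 to 5 calls for adult against native, and 29 or 30 for BM-derived against AM-derived without BM-derived replicate 1 or AM-derived replicate 3. Each group holds each replicate number once, so the replicate block could change the spread and the p-values but not the differences. With it, Mbnl3 in yolk sac macrophages against fetal liver monocytes (-2.15) had an adjusted p of 4.16e-07 by limma. No call on the 3 genes changed with the block. Mbnl3 was near the table median in YS-derived macrophages, which limits how low a level the arrays could show there.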
